A study of Schmidtea mediterranea with 24 samples.

Results

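The contigs described here were higher in planarians after nkx1-1 RNAi than in their own controls, without a matching rise after myoD RNAi. They number 125 of the 26563 contigs counted, and 15382 contigs reached the mean level that the choice required. A contig is an assembled transcript sequence, and its level is given as CPM, its counts per 1e6 counts of the library. The choice used measured values of all 24 libraries. N is the log2 ratio of mean CPM after nkx1-1 RNAi to mean CPM in the 12-feeding controls, with 0.5 added to each mean, and M is the same ratio for myoD RNAi over the 10-feeding controls. A member had a mean of at least 1 CPM over all libraries, N of at least 0.3 and M under 0.15. In addition at least 6 of the 7 nkx1-1 RNAi animals lay above every 12-feeding control.

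Planarians are flatworms that renew all tissues from dividing stem cells, the neoblasts. Their body wall holds layers of muscle fibres, which also express signals that mark position along the body axes. The homeobox transcription factor nkx1-1 is needed for circular fibres and the bHLH transcription factor myoD for longitudinal ones. RNAi by feeding of double-stranded RNA (dsRNA) lowers the targeted transcript while tissues turn over.

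Schmidtea mediterranea of strain CIW4 was used, and each library came from 1 whole uninjured animal according to the title, design and tissue fields. The extraction field speaks of several pooled tail wounds instead, so the replicate spread would have another meaning if that field were right. In all, 7 animals were fed nkx1-1 dsRNA and 5 were fed control dsRNA, 12 times within 9 weeks. Another 6 were fed myoD dsRNA and 6 control dsRNA, 10 times within 7 weeks. Control dsRNA matched the Caenorhabditis elegans gene unc-22, so every animal had eaten dsRNA. Feedings, weeks and cohort go together and cannot be told apart. Animals share a body with many cell types, so more cells of a type and more RNA per cell cannot be told apart either.

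No gene name is attached to any contig in the deposited tables. The level of the nkx1-1 transcript itself, marker genes of muscle or other tissues, and the function of any member were therefore not analysed here, and each member is given by its ID. Whether a member belongs to the targeted gene is not known here. Libraries held 9757113 to 18136698 counts. The lowest total was that of nkx1-1 RNAi replicate 2. A pair of libraries stood apart from their groups. In nkx1-1 RNAi replicate 1 the contig dd_Smed_v4_4_1_1, which is no member, held 6.79% of all counts, and its share in the 6 further animals of that group was 0.0393% to 0.391%. The 12-feeding control replicate 3 was the lowest of the 5 controls for 60 of the 125 members and the highest for 20. Its median deviation from the group mean was −0.16 on the log2 scale over the members and 0.03 over the 15382 contigs. By this median it stood apart in the members and not in contigs at large. A median of signed deviations does not show contigs that moved in opposite directions. Over contigs with at least 10 counts in a pair of libraries, chi-square per degree of freedom was also computed. It was 15.5 to 33.0 between replicate 3 and the other controls, and 7.72 to 23.5 among those others. The share of all contigs lowest in replicate 3 was not computed.

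Because every library and both RNAi contrasts entered the choice, the rises below are descriptions and carry no test. Of the contigs with a mean of at least 1 CPM, 948 had N of at least 0.3. Of these, 403 also had 6 or 7 nkx1-1 RNAi animals above every control. The limit on M then set 278 aside and kept 125. Most contigs that rose by this measure after nkx1-1 RNAi thus had M of 0.15 or more. The share of all contigs with such an M was not computed, so no link between both effects is read from this. M is a threshold and not a gap: the members nearest to it were dd_Smed_v4_8578_0_1 at 0.15 and dd_Smed_v4_22565_0_1 at 0.149. Just outside lay dd_Smed_v4_20347_0_1 at 0.151 and dd_Smed_v4_32410_0_1 at 0.152.

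The members' rises were small, with 1 exception. The median N was 0.38, against 0.04 over the 15382 contigs, and the median M was 0.01, against −0.02. N was under 0.4 for 72 members, at least 0.5 for 21 and at least 1 for 1. M was below 0 for 58 members and from 0 up to the limit for 67. At the lower limit of N the members dd_Smed_v4_12042_0_1, dd_Smed_v4_2126_0_1, dd_Smed_v4_5696_0_1 and dd_Smed_v4_11412_0_1 had values of 0.301 to 0.305. The nearest contigs outside it, dd_Smed_v4_8512_0_1, dd_Smed_v4_16733_0_1, dd_Smed_v4_602_0_1 and dd_Smed_v4_10006_0_1, had 0.297 to 0.299. A value of 0.3 is a difference of 23.1% once 0.5 CPM is added to both means. Between the means themselves the difference is larger, most of all for members of low level, and 48 members had a mean under 5 CPM.

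Counts set how well such a difference is seen. The median count of a member over the 24 libraries ranged from 15.5 to 40024, with a median of 97.0, and 42 members had a median count under 50. Counting alone gives a relative error of 25.4% per library at 15.5 counts and of 10.2% at 97.0 counts. The means over 5 to 7 animals are tighter than that. These errors cover counting only.

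The contig dd_Smed_v4_19327_0_1 rose far more than any other member. The 7 nkx1-1 RNAi animals, in replicate order, had 158, 73.2, 145, 87.8, 96.7, 127 and 86.8 CPM, against 2.22, 2.14, 2.91, 2.34 and 2.40 CPM in the 5 controls. The lowest nkx1-1 RNAi animal stood well above the highest control, so the groups did not overlap. After myoD RNAi it had a lowest, median and highest level of 1.49, 2.56 and 3.89 CPM, against 2.19, 2.50 and 3.69 CPM in the 10-feeding controls, 2 ranges that overlapped. These levels rest on 714 to 2322 counts per nkx1-1 RNAi library and 34 to 44 counts per control library. Its N was 5.26, while the next largest N of any member was 0.99. In the authors' deposited table its fold change was 45.1 for nkx1-1 and 1.00 for myoD.

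The 7 members that follow by N had values of 0.67 to 0.99. For dd_Smed_v4_9118_0_1 the nkx1-1 RNAi animals had a lowest, median and highest level of 69.0, 91.1 and 165 CPM, against 58.0, 67.4, 31.4, 43.8 and 62.9 CPM in the 5 controls. All RNAi animals lay above all controls, the closest by a small margin, and replicates 3 and 5 were highest. The myoD RNAi animals averaged 36.2 ± 3.45 CPM and their controls 39.0 ± 8.32 CPM (SD, n = 6 each).

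The contigs dd_Smed_v4_34919_0_1 and dd_Smed_v4_4808_0_1 were low in every 10-feeding animal. For dd_Smed_v4_34919_0_1 the nkx1-1 RNAi animals ranged from 6.06 to 12.9 CPM with a median of 10.8, against 5.93, 6.18, 3.77, 3.54 and 6.56 CPM in their controls. It had medians of 2.00 CPM after myoD RNAi and 1.58 CPM in the 10-feeding controls. For dd_Smed_v4_4808_0_1 the nkx1-1 RNAi animals ranged from 9.24 to 20.1 CPM with a median of 11.5, against 6.86, 9.74, 3.37, 5.08 and 10.5 CPM in the controls. In each of these contigs 1 nkx1-1 RNAi animal lay within the control range. The medians of dd_Smed_v4_4808_0_1 were 1.70 CPM after myoD RNAi and 1.73 CPM in the 10-feeding controls. In both contigs every 12-feeding animal, RNAi or control, lay above every 10-feeding animal. The deposited files give no contig lengths, so levels are compared between animals and not between contigs.

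The contigs dd_Smed_v4_3193_0_1 and dd_Smed_v4_12445_0_1 shared another pattern. For dd_Smed_v4_3193_0_1 the nkx1-1 RNAi animals ranged from 262 to 460 CPM with a median of 369, against 131, 157, 265, 284 and 172 CPM in the 12-feeding controls. For dd_Smed_v4_12445_0_1 they ranged from 5.12 to 12.9 CPM with a median of 8.86, against 3.40, 4.93, 6.48, 6.51 and 4.66 CPM in these controls. Control replicates 3 and 4 were the highest of their group in both contigs, and nkx1-1 RNAi replicate 2 was the animal inside the control range in both. The 10-feeding animals lay near the 12-feeding controls: dd_Smed_v4_3193_0_1 averaged 241 ± 47.8 CPM after myoD RNAi and 227 ± 29.4 CPM in controls (SD, n = 6 each).

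The contigs dd_Smed_v4_5017_0_1 and dd_Smed_v4_15932_0_1 complete the 8 largest values of N. For dd_Smed_v4_5017_0_1 the nkx1-1 RNAi animals ranged from 64.0 to 145 CPM with a median of 124, against a narrow 60.6 to 73.4 CPM in controls, and replicate 2 again lay inside the control range. The level of dd_Smed_v4_15932_0_1 was 6.32 ± 1.62 CPM (SD, n = 7) after nkx1-1 RNAi and 3.79 ± 0.687 CPM (SD, n = 5) in controls. The 10-feeding controls, at 4.84 ± 0.610 CPM (SD, n = 6), lay between both 12-feeding groups.

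**Figure D1:**
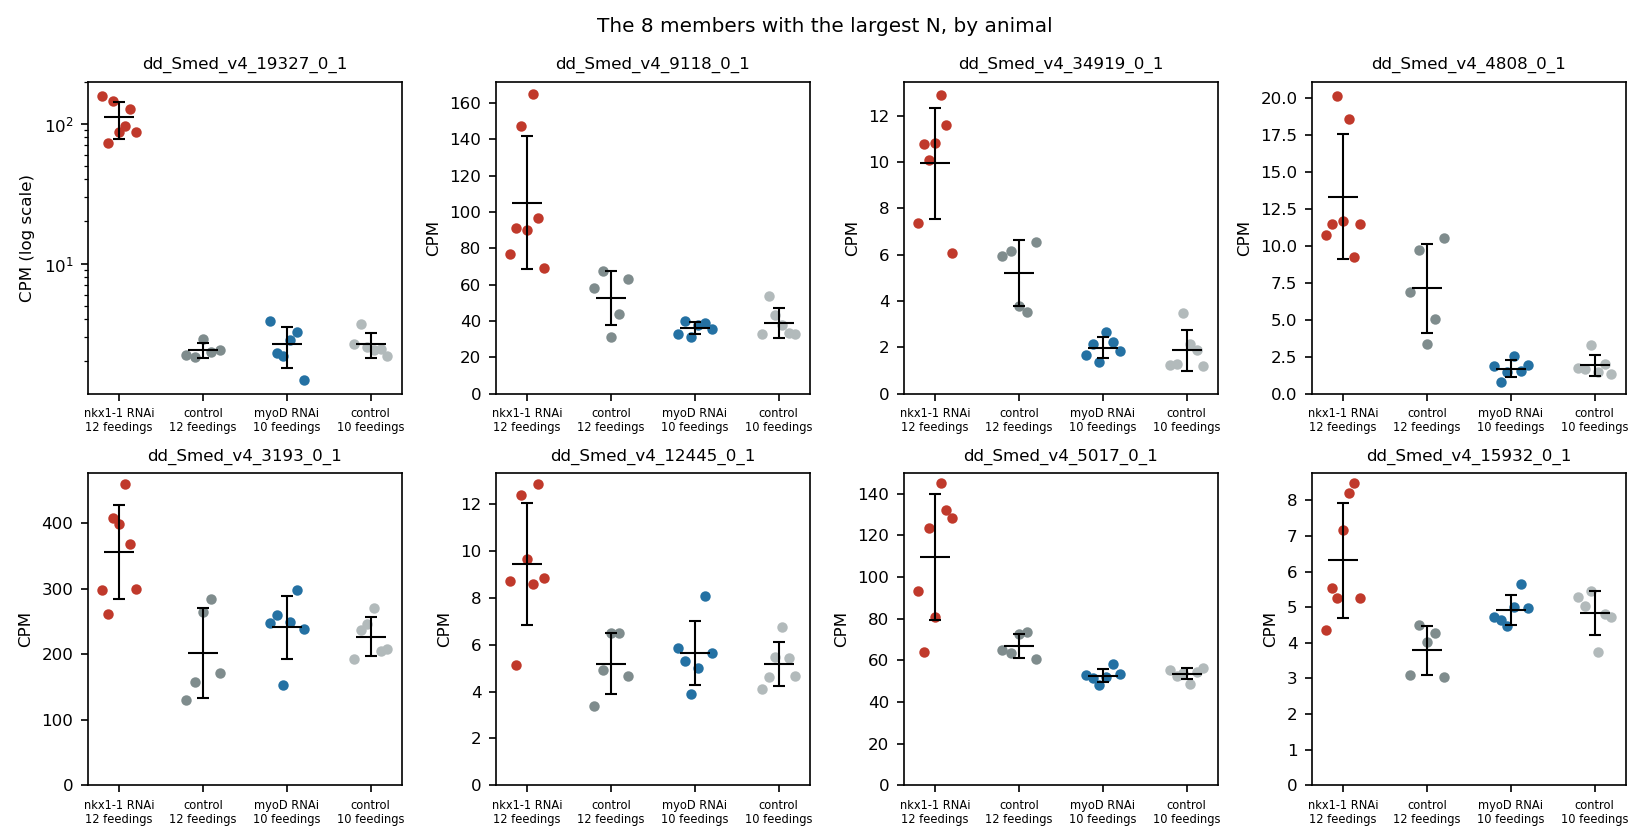
CPM of the 8 members with the largest N in each animal (points), with the mean and SD of each group (bars); the scale of dd_Smed_v4_19327_0_1 is logarithmic and the others start at 0. For dd_Smed_v4_19327_0_1 the nkx1-1 RNAi animals lie between 73.2 and 158 CPM and all other animals between 1.49 and 3.89 CPM. The contigs dd_Smed_v4_34919_0_1 and dd_Smed_v4_4808_0_1 are also higher in every 12-feeding control than in every 10-feeding animal, the closest by a small margin.

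By counts the members were dominated by dd_Smed_v4_194_0_1, which held 49.5% of their summed mean CPM. Its nkx1-1 RNAi animals, in replicate order, had 3119, 5428, 5294, 5110, 6025, 5222 and 4405 CPM, against 3460, 4070, 2307, 4094 and 3799 CPM in their controls. Replicate 1 lay inside the control range and the other 6 above it. Levels were lower on the other schedule, at 2259 ± 244 CPM after myoD RNAi and 2134 ± 262 CPM in controls (SD, n = 6 each). The next members by counts were dd_Smed_v4_958_0_1, dd_Smed_v4_3193_0_1 and dd_Smed_v4_773_0_1, with 3.16% to 6.27% of the sum each. For dd_Smed_v4_958_0_1 the nkx1-1 RNAi animals averaged 537 ± 47.0 CPM (SD, n = 7) and their controls 418 ± 44.8 CPM (SD, n = 5). The members together held 9448 ± 1361 CPM after nkx1-1 RNAi (SD, n = 7) and 6815 ± 971 CPM in the 12-feeding controls (SD, n = 5). Without dd_Smed_v4_194_0_1 these sums were 4505 ± 522 CPM after nkx1-1 RNAi and 3269 ± 238 CPM in the controls. On the other schedule all members held 5011 ± 281 CPM after myoD RNAi and 4813 ± 344 CPM in controls (SD, n = 6 each).

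A fit over all contigs with edgeR's quasi-likelihood test called 48 of the 125 members higher after nkx1-1 RNAi and 0 lower, at a Benjamini-Hochberg adjusted p under 0.05. Over all 16598 contigs tested, 1.79% were called higher and 2.08% lower. Since the choice used this contrast, nothing is read from the excess. The other 77 members were not called, so for most members the rise did not pass this test against the spread between animals. At an unadjusted p under 0.05, 124 members were higher and 0 lower, against 3499 of the 16598 contigs in either direction. DESeq2 called 62 members higher and 0 lower, against 442 higher and 590 lower of 16978 contigs. The edgeR count of 48 members was 64 without nkx1-1 RNAi replicate 1, and 51 without replicate 2. It fell to between 17 and 28 when any 1 of nkx1-1 RNAi replicates 3 to 7 was left out, and to 25, 26, 11 and 21 without 12-feeding control replicates 2 to 5. Higher calls over all contigs tested (16476 to 16763) moved as well, from 297 with all libraries. They were 519 and 319 without nkx1-1 RNAi replicates 1 and 2, and 134 to 205 without any 1 of replicates 3 to 7. Without 12-feeding control replicates 2 to 5 they were 140, 216, 104 and 175. The authors' deposited table lists 23 members as higher after nkx1-1 RNAi at an adjusted p under 0.05, where 0.767% of its contigs are, and 0 as lower, where 0.882% are.

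For the myoD comparison the same test called 3 members higher and 0 lower, against 5.16% higher and 2.37% lower among the 16352 contigs tested. DESeq2 called 2 members higher and 0 lower, against 884 higher and 391 lower of 20980 contigs. The 3 were dd_Smed_v4_958_0_1, dd_Smed_v4_8578_0_1 and dd_Smed_v4_6736_0_1, whose log2 fold changes were 0.14 ± 0.04, 0.16 ± 0.05 and 0.15 ± 0.04 (SE). For these contigs the wording "only after nkx1-1 RNAi" holds by the limit on M and not by the test. The authors' deposited table lists 0 members for myoD in either direction, where 2.72% of its contigs are listed higher and 1.01% lower. At an unadjusted p under 0.05 the edgeR fit had 9 members higher and 1 lower, against 3061 of the 16352 contigs in either direction.

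Whether the nkx1-1 effect differed from the myoD effect was fitted on all 24 libraries. All 125 members had a more positive nkx1-1 effect, with a median difference of 0.38 on the log2 scale, as the limits on N and M require. The difference was called for 5 members, against 0.169% more positive and 0.256% more negative among the 17159 contigs tested. The other 120 carry the label of a rise after nkx1-1 RNAi alone without a called difference between the effects. DESeq2 called 11 members, against 47 more positive and 103 more negative of 17611 contigs. With edgeR the number of members was 10 without nkx1-1 RNAi replicate 2 and 3 without myoD RNAi replicate 6. It was 8 without nkx1-1 RNAi replicate 4 or myoD RNAi replicate 5. Over all contigs tested, 29 were more positive with all libraries. Without these 4 libraries, in the order named, 46, 21, 31 and 38 were.

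Of these 5, dd_Smed_v4_19327_0_1 differed by 5.47 ± 0.39 (SE). The next, dd_Smed_v4_2477_0_1, differed by 0.48 ± 0.10 (SE). Its nkx1-1 RNAi animals ranged from 28.7 to 38.1 CPM with a median of 32.1, against 26.3, 23.5, 19.2, 24.2 and 25.0 CPM in their controls, with no overlap. It had 16.9 ± 1.23 CPM after myoD RNAi and 17.6 ± 0.460 CPM in controls (SD, n = 6 each), below every 12-feeding animal.

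The difference was 0.44 ± 0.09 (SE) for dd_Smed_v4_1797_0_1, which ranged from 60.1 to 83.6 CPM with a median of 70.3 after nkx1-1 RNAi, against 58.3, 57.7, 43.9, 55.9 and 58.3 CPM in the 12-feeding controls. The lowest RNAi animal was just above the highest control, without overlap. After myoD RNAi it averaged 30.9 ± 1.84 CPM, against 33.3 ± 1.83 CPM in controls (SD, n = 6 each). For dd_Smed_v4_4050_0_1 the difference was 0.37 ± 0.08 (SE), with 44.9 ± 5.56 CPM (SD, n = 7) after nkx1-1 RNAi and 35.9 ± 1.20 CPM (SD, n = 5) in controls. Of the 5, it alone had an nkx1-1 RNAi animal, replicate 1 at 36.5 CPM, inside the control range.

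The contig dd_Smed_v4_7030_0_1, with a difference of 0.37 ± 0.08 (SE), varied little within groups. The nkx1-1 RNAi animals, in replicate order, had 22.3, 21.6, 22.0, 22.5, 23.3, 22.9 and 21.4 CPM, against 18.0, 17.3, 18.4, 18.6 and 17.1 CPM in their controls. All RNAi animals were above all controls. The 10-feeding controls had a lowest, median and highest level of 19.6, 20.8 and 23.1 CPM, so 6 of the 7 nkx1-1 RNAi animals lay inside their range, replicate 5 just above it, and the 12-feeding controls below it.

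The members fell into unlike groups once the controls of both schedules were set against each other. The choice of members used the 12-feeding controls, and favoured contigs that were low in them. Even so, 50 members were called higher in the 12-feeding than in the 10-feeding controls and 13 lower. Over the 16262 contigs tested, 18.2% were called higher and 16.8% lower. Higher calls made up 40% of the members and lower calls 10.4%, and no test of these shares was run. The median log2 ratio of 12-feeding to 10-feeding controls was 0.11 over the members, against −0.04 over the 15382 contigs with a mean of at least 1 CPM. Without control replicate 3 of the 12-feeding group, 57 were higher and 12 lower. Over all 16394 contigs then tested, 3511 were called higher and 3452 lower, against 2965 and 2736 of 16262 with all libraries.

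In the 50 members that were higher in 12-feeding controls, the limit on N places the nkx1-1 RNAi mean further still from the 10-feeding level, so that order is no result. Their median log2 ratio to the 10-feeding controls was 0.76 for nkx1-1 RNAi animals, against 0.41 for the 12-feeding controls. These contigs were well counted, with a median count of 523, and 2 of them had a mean under 5 CPM. In 45 of the 50, the lowest 12-feeding control was replicate 3, as it was in 60 of all 125 members. The share over all contigs was not computed for this, so nothing is read from it. In 36 of the 50, every other 12-feeding control lay above all 12 animals of the 10-feeding schedule, and in 42 every nkx1-1 RNAi animal did. Over the 15382 contigs with a mean of at least 1 CPM these counts were 1807 and 1390. The 50 were picked by a call between both controls, which favours such contigs. Control replicate 3 lay inside the range of the 10-feeding animals in 32 of the 50 members, and in 10995 of the 15382 contigs. The median N of the 50 was 0.36 with all libraries, 0.29 without control replicate 3, and 0.34 without this library and nkx1-1 RNAi replicate 1. N then stayed at or above 0.3 for 22 of the 50 without control replicate 3, and for 33 without both libraries.

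The 13 members lower in the 12-feeding controls were chosen for low 12-feeding controls both by this call and by N, so the values only describe them. Their median log2 ratio to the 10-feeding controls was −0.03 for nkx1-1 RNAi animals and −0.46 for the 12-feeding controls. In 10 of the 13 the nkx1-1 RNAi mean was below the 10-feeding control mean. An example chosen after its values were seen is dd_Smed_v4_16261_0_1. Its nkx1-1 RNAi animals had a lowest, median and highest level of 1.57, 2.59 and 2.93 CPM, against 1.73, 1.19, 1.52, 1.66 and 1.48 CPM in their controls. It had medians of 2.58 CPM after myoD RNAi and 2.51 CPM in the 10-feeding controls. The 10-feeding animals of both groups ranged from 1.95 to 3.46 CPM, and nkx1-1 RNAi replicates 1 and 7 lay below that range. Replicate 1 also lay inside the range of the 12-feeding controls, and the other 6 above it. These contigs were thinly counted, with a median count of 34.5, and 10 of the 13 had a mean under 5 CPM. Their median N was 0.42 with all libraries and 0.43 without the pair that stood apart.

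The other 62 members were not called between the controls. Their median log2 ratio to the 10-feeding controls was 0.34 for nkx1-1 RNAi animals and −0.08 for the 12-feeding controls, and they include dd_Smed_v4_19327_0_1. Of these, 36 had a mean under 5 CPM. Over all 125 members the nkx1-1 RNAi mean was the highest of the 4 group means in 114, and it exceeded each other group mean by at least 20% in 91. The 12-feeding control mean was the lowest of the 4 in 45. The limit on N places the nkx1-1 RNAi mean above the 12-feeding control mean, so these counts follow in part from the choice. Shares over all contigs were not computed for them.

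**Figure D2:**
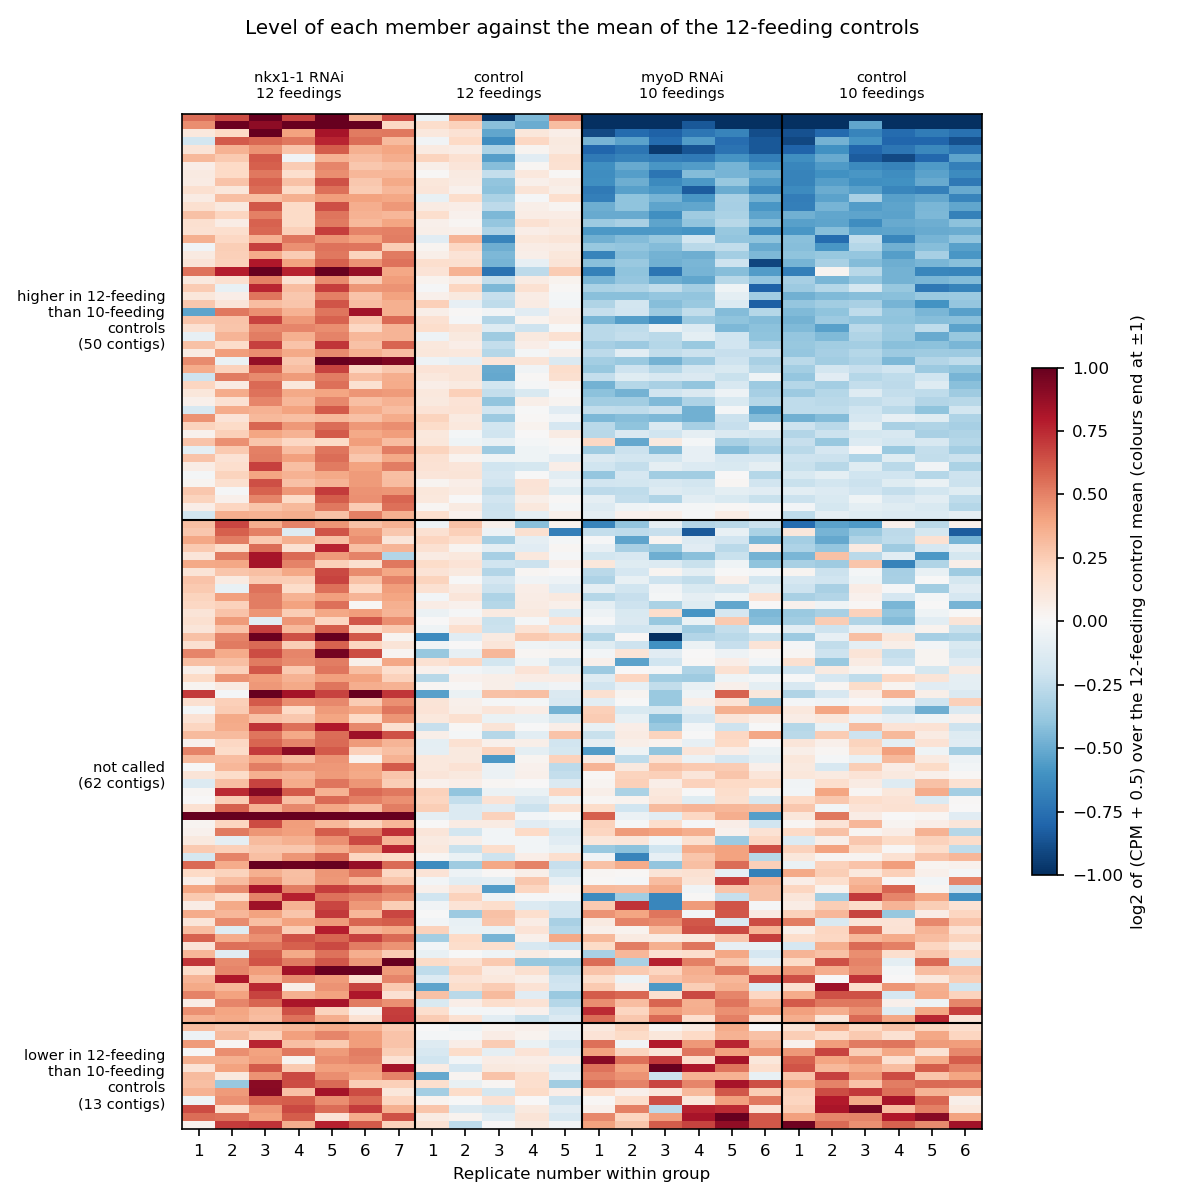
Each row is 1 of the 125 members and each column 1 animal; colour gives the log2 ratio of CPM + 0.5 to the 12-feeding control mean, red above and blue below. Rows are grouped by the comparison of 12-feeding with 10-feeding controls: in the upper 50 the 10-feeding animals and 12-feeding control replicate 3 are mostly blue, in the lower 13 the 10-feeding animals are mostly red, like the nkx1-1 RNAi animals.

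**Figure D3:**
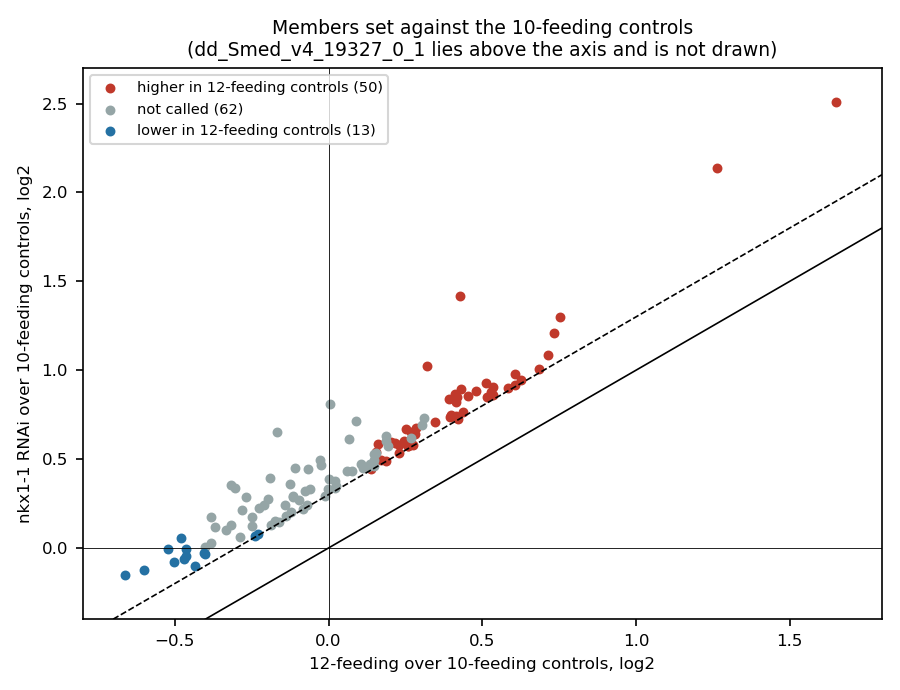
Each point is 1 member, with dd_Smed_v4_19327_0_1 not drawn; the x axis gives the log2 ratio of 12-feeding to 10-feeding control means, the y axis that of nkx1-1 RNAi to 10-feeding control means, the solid line marks equal nkx1-1 RNAi and 12-feeding control means and the dashed line N = 0.3. The 13 members lower in 12-feeding controls lie near 0 on the y axis, with a median of −0.03, and the 50 higher ones lie above it, with a median of 0.76.

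A set of 19 members was found, after the values were seen, by correlating each contig's log2 levels over the 24 animals after the mean of its group had been removed. The contig with the most partners at r of at least 0.8 was dd_Smed_v4_1154_0_1, with 18, and these with their partner make up the set. Its r with them was 0.81 to 0.95 and Spearman's rho 0.62 to 0.93, over 24 animals that share library composition. With TMM-scaled CPM (library totals adjusted by edgeR's trimmed mean factors) r was 0.74 to 0.93. Without the pair of libraries that stood apart it was 0.51 to 0.90. Among the 171 pairs within the set, 81 had r of at least 0.8 and the median was 0.80 (0.69 without both libraries). High values in the set follow in part from how it was chosen. The median r was 0.21 over all 7750 pairs of members and 0.41 over the 2926 pairs of members with a mean of at least 5 CPM, a level that all 19 reached.

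Shared function or control of these 19 cannot be read from this. The nkx1-1 RNAi animals had, in replicate order, 81.1, 93.5, 116, 94.0, 120, 92.5 and 99.9 CPM of dd_Smed_v4_1154_0_1, against 83.3, 81.4, 58.4, 79.7 and 81.1 CPM in their controls. Replicates 3 and 5 were the highest nkx1-1 RNAi animals, replicate 1 lay within the control range, and control replicate 3 was the lowest of its group. The 10-feeding schedule gave 52.7 ± 3.62 CPM after myoD RNAi and 50.3 ± 2.64 CPM in controls (SD, n = 6 each).

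All 19 were called higher in the 12-feeding than in the 10-feeding controls, by a median log2 ratio of 0.51. In all 19 control replicate 3 was the lowest 12-feeding control, and the other 4 controls and all nkx1-1 RNAi animals lay above every 10-feeding animal. The set was chosen by deviations shared with dd_Smed_v4_1154_0_1, whose own lowest 12-feeding control was replicate 3. The shared low replicate therefore follows in part from that choice, and its share over all contigs was not computed. Over the 15382 contigs, the other 4 controls did so in 1807 and all nkx1-1 RNAi animals in 1390. N of the 19 ranged from 0.30 to 0.54 with a median of 0.35. That median was 0.27 without control replicate 3 and 0.29 without both libraries, when 6 and 8 of the 19 kept N of at least 0.3. The set includes dd_Smed_v4_958_0_1, dd_Smed_v4_773_0_1, dd_Smed_v4_1797_0_1 and dd_Smed_v4_2477_0_1, described above. The pair dd_Smed_v4_3193_0_1 and dd_Smed_v4_12445_0_1 lay outside it. No member had a higher r with dd_Smed_v4_12445_0_1 than dd_Smed_v4_3193_0_1 had (0.77, rho 0.69, 24 animals), and r was 0.70 without the 2 animals farthest out and 0.76 without the libraries that stood apart.

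**Figure D4:**
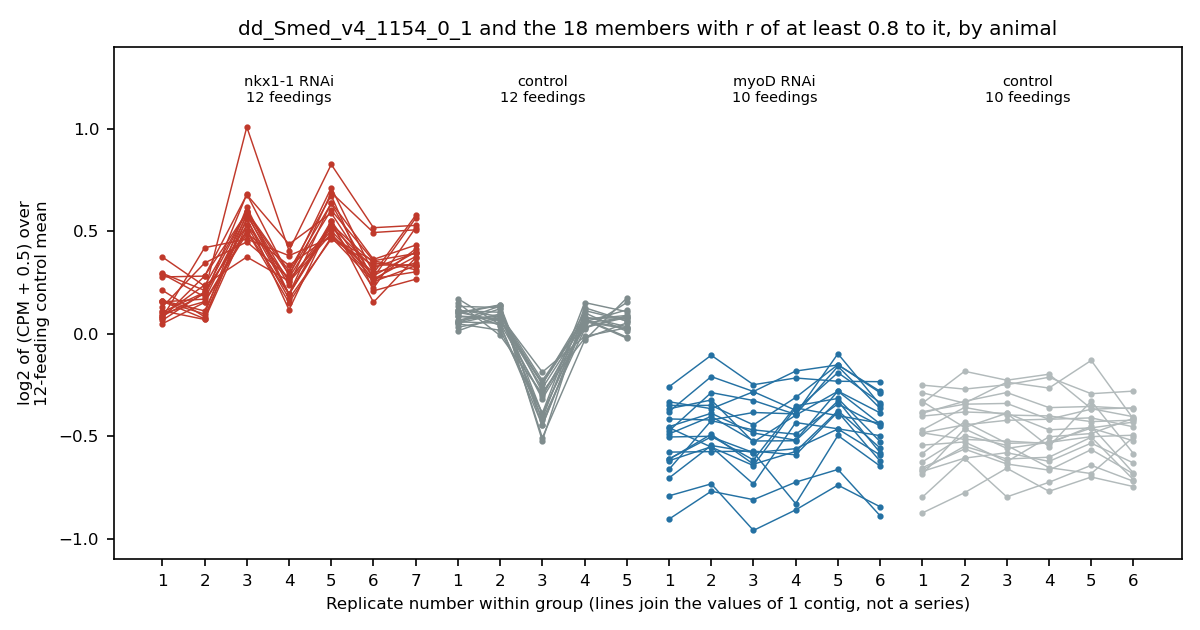
Log2 ratio of CPM + 0.5 to the 12-feeding control mean in each of 24 animals for dd_Smed_v4_1154_0_1 and the 18 members with r of at least 0.8 to it; each line is 1 contig. The lines are high in nkx1-1 RNAi replicates 3 and 5, and low in 12-feeding control replicate 3, between the other controls and most 10-feeding values.

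The members were not raised evenly across the nkx1-1 RNAi animals. All 7 animals were above every control for 30 members, against 0.670% of the 15382 contigs, and the choice itself favours such contigs. For the other 95, exactly 1 animal was not. It was replicate 1 in 49 cases and replicate 2 in 26, and replicates 3 to 7 gave 1, 5, 0, 7 and 7. Replicates 3 and 5 were the highest animals for 41 and 43 members. The median deviation of a member from its group mean was −0.20 on the log2 scale in replicate 1, 0.16 in replicate 3 and 0.16 in replicate 5. Over all 15382 contigs the same animals had −0.15, 0.08 and 0.06.

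The scale matters to this uneven share. With TMM-scaled CPM, which adjusts for a library's composition, replicate 1 had a factor of 0.898 and missed the controls in 24 members. Replicates 2 to 7 then missed them in 32, 15, 20, 11, 26 and 20. On that scale 88 of the 125 still had 6 or 7 animals above every control, 34 had all 7, and N stayed above 0 for all 125, with a median of 0.32. N reached 0.3 for 78 of them. The whole choice made on TMM-scaled CPM gave 69 contigs, of which 58 are among the 125. The identity of the members close to the limits therefore depends on the scale. No conclusion is drawn from the kept direction, since the choice required N of at least 0.3. TMM scaling moved the median N over contigs with a mean of at least 1 CPM by only −0.06.

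**Figure D5:**
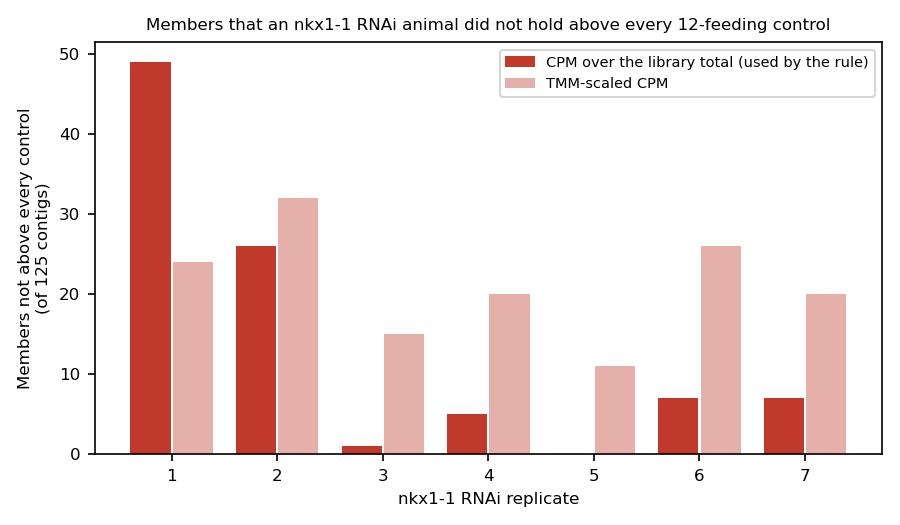
Number of the 125 members that each nkx1-1 RNAi animal did not hold above every 12-feeding control, with CPM over the library total (dark bars) and with TMM-scaled CPM (light bars). On the first scale replicate 1 has 49 and replicate 5 has 0; on the second the counts run from 11 to 32.

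Within groups the members varied somewhat more than contigs at large. The median SD of log2 CPM of a member was 0.20 among nkx1-1 RNAi animals and 0.17 among their controls, against 0.16 and 0.15 over the 15382 contigs. It was 0.15 among both myoD RNAi animals and 10-feeding controls, against 0.12 in each over the 15382 contigs. Many members are thinly counted, and the part of counting error in this spread was not tested.

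The contig IDs hold a component number, and the 125 members belong to 125 different components. For 2 of them the table holds another contig of the same component. The member dd_Smed_v4_12475_0_1 had N of 0.38 and M of 0.07. Its partner dd_Smed_v4_12475_2_2 had N of 0.29 and M of 0.24, outside both limits. The member dd_Smed_v4_3574_1_1, at 3.64 CPM over all libraries, had N of 0.33 and M of −0.22. Its partner dd_Smed_v4_3574_2_1, at 44.4 CPM, went another way, with N of 0.07 and M of 0.45. It had 51.7 ± 8.63 CPM after myoD RNAi, against 37.6 ± 3.46 CPM in controls (SD, n = 6 each). Reads shared between contigs of 1 component were not examined, and such values belong to the contig, not to a gene.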

How the data were processed

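For 24 libraries the deposited counts are whole numbers for each contig and were not normalised. The authors' own comparison of each RNAi group with its controls holds size-factor-normalised means (signal), a linear fold change (ratio), its log2 and p-values, per the file headers. The myoD log2 column was not used. CASAVA, cutadapt 1.8, Bowtie 1.1.1, SAMtools and DESeq are named in the submitters' processing notes. Alignment settings, the strand setting and the source of the contigs are not stated in the labels.

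Members were found with CPM over the column total, as the report states. The members, lists and rules were chosen with earlier results of these data known. Counts were fitted with edgeR 4.0.16 in R 4.3.3 (TMM factors, filterByExpr, quasi-likelihood F test), each RNAi group with its own controls, the controls of both schedules with each other, and the difference of effects on all 24 libraries. A contig with a Benjamini-Hochberg adjusted p under 0.05 over all contigs tested was called. The SE is the log2 fold change divided by the square root of F. DESeq2 1.42.0, other size factors, no filter, a 2-fold minimum, a replicate block and leaving out each library were alternatives. No pair of libraries within a group agreed within sampling noise: chi-square per degree of freedom was 4.18 to 103.

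Named members are the 8 with the largest N, the 4 with the most counts, those with a called difference of effects and the 4 nearest the limit of N. Others named were chosen after their values were seen. Marker lists could not be run because the files hold no names.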

Additional observations from a re-analysis of the deposited data

Results flagged for a closer look

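Gaps within groups were examined in 84 sets of values: library totals, the members' summed CPM, and the 19 named members in 4 groups. A single animal stood apart in 7 sets, and chance alone flags about 1 set in 20, which is 4.2 of these. Among 10-feeding controls, replicate 6 held 17375822 counts and the rest 13597429 to 14981573. In 12-feeding control replicate 3 the contigs dd_Smed_v4_1797_0_1 and dd_Smed_v4_2126_0_1 had 43.9 and 53.6 CPM, against 55.9 to 58.3 and 65.0 to 67.4 CPM in the other controls. Both contigs belong to the set of 19 members in which this library was the lowest control, so this is no separate observation.

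The other 4 sets concern 10-feeding animals. The contig dd_Smed_v4_19327_0_1 had 3.69 CPM in control replicate 2, against 2.19 to 2.65 CPM in the rest, and dd_Smed_v4_4808_0_1 had 3.26 CPM in control replicate 3, against 1.32 to 2.02 CPM. The contig dd_Smed_v4_958_0_1 had 389 CPM in myoD RNAi replicate 2, against 350 to 360 CPM (349.6 to 360.1), and dd_Smed_v4_773_0_1 had 204 CPM in myoD RNAi replicate 5, against 163 to 172 CPM.

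The nkx1-1 effect exceeded the myoD effect by test for 5 members, on the log2 scale by 5.47 for dd_Smed_v4_19327_0_1, 0.48 for dd_Smed_v4_2477_0_1, 0.44 for dd_Smed_v4_1797_0_1, 0.37 for dd_Smed_v4_4050_0_1 and 0.37 for dd_Smed_v4_7030_0_1. The choice of members used both effects, so these differences are not independent of it.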

How the results depend on the processing

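The list of 125 depends on its limits. It held 69 contigs on TMM-scaled CPM, 21 at N of at least 0.5, 1 at N of at least 1, 58 at M under 0, 197 at M under 0.3, 77 at a mean of at least 5 CPM and 30 when all 7 animals had to lie above every control. Leaving out each library in turn gave 113 to 336 contigs. The list held 336 and 285 without nkx1-1 RNAi replicates 1 and 2, and 252 and 202 without 12-feeding control replicates 1 and 2. Without both libraries that stood apart, an alternative added after seeing the data, 353 were found, and 104 of the 125 were among them. With a 12-feeding library left out, 1 miss was still allowed among fewer RNAi animals, or fewer controls had to be exceeded. Larger lists can thus come in part from a looser rule. N of the 19 named members kept its sign in 285 of 285 alternative settings. The choice required N of at least 0.3, so nothing is read from the kept sign.

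Calls after nkx1-1 RNAi (48) were 11 to 64 when 1 library was left out and 1 with a 2-fold minimum. Over all contigs the higher calls (297) were 104 to 519 and 45 in these settings. With the replicate block on the shared replicate numbers 1 to 5 the count of members was 3, and without the block on the same libraries 6. Higher calls over all contigs were then 8 and 51. The correlation of same-numbered animals' deviations was −0.17 to 0.03 between nkx1-1 RNAi and controls (0 of 5 closest to their own number), −0.25 to 0.18 between myoD RNAi and controls (2 of 6) and −0.09 to 0.28 between both controls (3 of 5). In no comparison was every pair over 0.1, so the numbers were not taken as pairs. Calls after myoD RNAi (3) were 0 with a 2-fold minimum, 1 without a filter and 1 with the replicate block, and 2 to 3 with 1 library left out. Higher calls over all contigs (844) were, in the same order, 94, 897, 770, and 712 to 915. Called differences of effects (5) were 1 with a 2-fold minimum, 3 without a filter, 11 with DESeq2 and 3 to 10 with 1 library left out. More positive calls over all contigs (29) were, in the same order, 10, 20, 47, and 21 to 46. Between controls, 39 to 57 higher and 10 to 16 lower calls remained with 1 library left out, 2 and 0 with a 2-fold minimum, and 39 and 11 with the replicate block. Over all contigs these were 2423 to 3511 and 2152 to 3452, then 84 and 48, and 2479 and 2256. Thin counts limit 42 members with a median under 50 counts. The cause of these shifts was not tested.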
